A study of Homo sapiens with 16 samples.

Results

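The genes described here are 40 members of the DNA replication machinery, taken by name from a list that was drawn up with earlier results of these data known. They cover origin licensing (5 genes), the replicative helicase and its activation (12), primase and the polymerases (6), the sliding clamp with its loader, single-strand binding and Okazaki fragment joining (8), nucleotide supply (4), and chromatin assembly and S phase control (5). All 40 were among the 15687 genes with enough reads to be tested, out of 56865 genes with a match in the annotation.

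The cells were NCI-H1299, a p53-null line from a human non-small cell lung cancer, and a derivative that stably expresses the p53 mutant Y220C. Y220C destabilises the fold of this tumour suppressor. Cells of each line took MS78, reported to recruit the acetyltransferases p300 and CBP to the mutant protein, or its vehicle for 24 h, and poly(A) RNA was sequenced. The 4 groups of 4 libraries are Y220C MS78 (10 µM MS78), Y220C DMSO (vehicle), Null MS78 (10 µM MS78 on p53-null cells) and Null DMSO (vehicle on p53-null cells). The medium of the Y220C line held 500 µg/mL G418 and that of the p53-null line did not, so effects of the line, the transgene and G418 cannot be told apart. How the stable cells were derived is not stated in the labels, nor is whether replicates were separate cultures, so the p-values rest on a spread among libraries that may be technical.

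Libraries held between 20.3 M and 27.7 M estimated reads. Of 8 epithelial markers, KRT8 and KRT18 made up most of the summed level, which was 609 to 646 CPM (reads divided by the TMM-scaled library total, times 1e6) in Y220C MS78, 797 to 845 in Y220C DMSO, 460 to 472 in Null MS78 and 473 to 519 in Null DMSO. EPCAM and CDH1, which define many epithelia, lay between 0.108 and 1.97 CPM in the 16 libraries. The 7 fibroblast markers summed to 48.7 to 82 CPM over all libraries. Transcripts encoded in mitochondria, read as a sign of RNA quality, summed to 35338 to 39843 CPM in Y220C MS78, 36500 to 40191 in Y220C DMSO, 28899 to 32890 in Null MS78 and 31150 to 35561 in Null DMSO. Leukocyte transcripts were found in replicate 1 of both DMSO groups and replicates 2 to 4 of both MS78 groups, with 55 to 99 reads of the leukocyte gene PTPRC against 0 or 1 in the other 8 libraries. The 12 leukocyte markers summed to 52.9 to 112 CPM in those 8 libraries and to 2.6 to 11.9 CPM in the rest. Since 3 of 4 MS78 libraries and 1 of 4 DMSO libraries of each line carried these reads, the effects below are also given within each kind of library.

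Before each S phase the origin recognition complex, CDC6 and CDT1 load the ring of MCM2 to MCM7 onto DNA, and geminin blocks CDT1 so that origins are not loaded again. CDC45 and the GINS complex then turn the ring into the active helicase, behind which primase and the polymerases copy the strands with the clamp PCNA and its loader RFC. Most of these genes are textbook targets of the E2F transcription factors, which p53 restrains indirectly through the cyclin-dependent kinase inhibitor p21, and their transcripts peak around the G1 to S transition.

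Since these genes share a known class of regulator, their promoters were searched for the letters that E2F proteins commonly bind. RefSeq promoter windows of 300 bases (250 before and 50 after the annotated start, GRCh38.p14) were matched by symbol for 36 members and not used for GINS4, MCM4, MCM5 and RPA2. The spellings TTTCCCGC, TTTCGCGC, TTTGCCGC and TTTGGCGC were searched on both strands. At least 1 match lay in 19 of the 36 windows (52.8%), in 7 of 40 windows of other replication genes (17.5%) and in 908 of all 27305 windows (3.33%). Members, lists and letters were chosen with earlier results of these data known, and most members are textbook E2F targets. The higher share among them follows in part from that choice and is not a test. In 13 members a match began within 60 bases before the start. The windows below show GINS2, CDT1, TYMS and DTL, whose responses differed between the lines, and MCM6, whose response did not detectably differ and which holds 4 matches in overlapping pairs. They also show RRM2, which has no match. Its response differed too, and its level differed most between the lines both under DMSO and under MS78. Capitals mark the matches; each window is written 5′ to 3′ on the strand of the gene.
GINS2 (chr16:85688955-85689034, minus strand, bases 80 to 1 before the start): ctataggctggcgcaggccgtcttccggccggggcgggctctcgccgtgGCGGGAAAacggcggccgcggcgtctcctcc
CDT1 (chr16:88803709-88803788, plus strand, bases 80 to 1 before the start): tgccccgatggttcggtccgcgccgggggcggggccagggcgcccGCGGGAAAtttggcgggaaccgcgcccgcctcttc
TYMS (chr18:657573-657652, plus strand, bases 80 to 1 before the start): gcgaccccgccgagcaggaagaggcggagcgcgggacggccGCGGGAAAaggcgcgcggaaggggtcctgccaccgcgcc
DTL (chr1:212035688-212035747, plus strand, bases 60 to 1 before the start): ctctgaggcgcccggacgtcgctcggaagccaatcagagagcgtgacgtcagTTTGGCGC
MCM6 (chr2:135876514-135876603, minus strand, bases 160 to 71 before the start): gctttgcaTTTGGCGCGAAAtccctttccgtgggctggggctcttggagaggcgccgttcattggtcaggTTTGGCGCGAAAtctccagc
RRM2 (chr2:10122659-10122738, plus strand, bases 80 to 1 before the start): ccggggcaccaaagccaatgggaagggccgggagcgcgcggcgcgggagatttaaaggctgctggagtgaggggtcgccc

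A match says only that the letters are present, and binding was not measured here. The pentamer CCAAT, read on either strand, was in 20 of the 36 windows (55.6%), 23 of 40 windows of other replication genes (57.5%) and 35.7% of all windows.

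**Figure D1:**
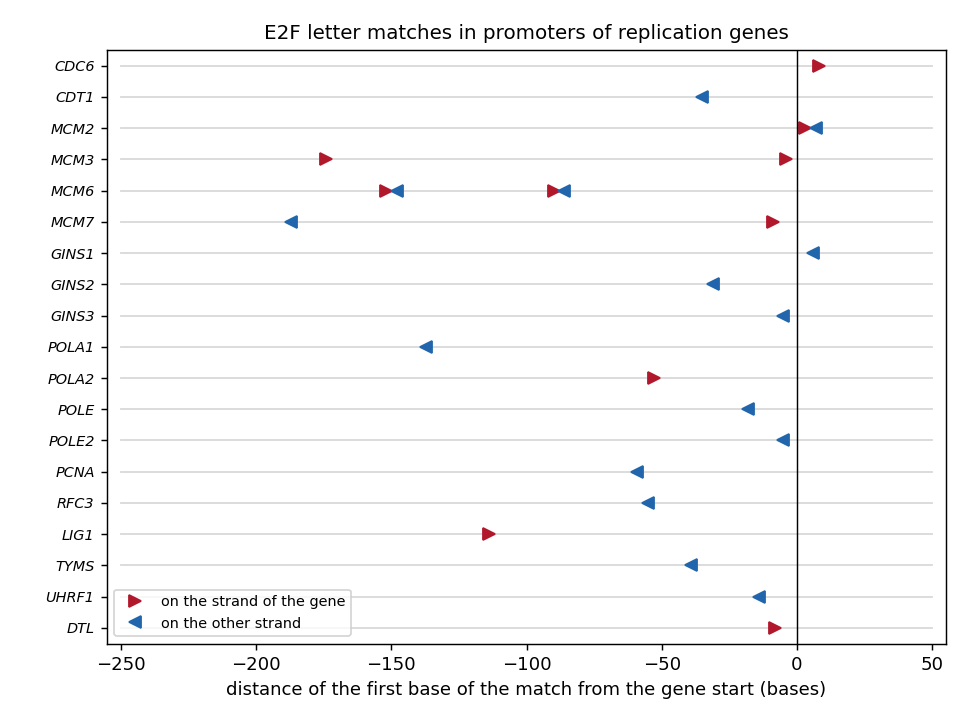
E2F letter matches in the promoter windows of the 19 members that hold at least 1; the x axis gives the distance of the first base of a match from the annotated gene start in bases (negative before it), triangles pointing right are matches on the strand of the gene and triangles pointing left matches on the other strand. Matches of 13 members begin within 60 bases before the start, and MCM6 holds 4 matches in overlapping pairs.

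Under MS78 nearly the whole machinery fell in both lines. In Y220C cells 39 of 40 members were lower and 1, SLBP, was higher than under DMSO, with a median log2 fold change of -0.90 against -0.01 over all genes tested. The background is wide: 48.5% of all genes tested passed the threshold in this comparison, 24.9% higher and 23.6% lower. In p53-null cells 39 of 40 members fell and SLBP did not pass, with a median of -0.70 against 0.01 over all genes, where 28.1% of all genes passed, 14.8% higher and 13.3% lower. The summed level of the 40 members was 1612 ± 17 CPM in Y220C MS78, 3035 ± 82 CPM in Y220C DMSO, 2651 ± 59.9 CPM in Null MS78 and 4260 ± 169 CPM in Null DMSO (SD, n = 4 each). The libraries of Y220C MS78 lay between 1594 and 1631 CPM and those of Y220C DMSO between 2942 and 3116. In p53-null cells the ranges were 2594 to 2734 CPM under MS78 and 4083 to 4488 under DMSO. None of the groups overlapped in this sum. Taken singly, the MS78 and DMSO groups were apart for 40 of 40 members in Y220C cells and for 39 in p53-null cells, against 41.3% and 29.3% of all genes. In bulk RNA, fewer cells in S phase and less of these transcripts per cell cannot be told apart.

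The 12 leukocyte markers had median log2 fold changes of 1.78 in Y220C cells and 1.84 in p53-null cells, and 1 of the 12, GNLY, passed the threshold in each line. Within the libraries with PTPRC reads (3 MS78 and 1 DMSO library per line) the members' medians were -0.98 in Y220C cells and -0.72 in p53-null cells. Within the libraries without them (1 and 3) they were -0.82 and -0.72. In the fit of all 16 libraries the medians were -0.90 in Y220C cells and -0.70 in p53-null cells. Each of the smaller fits has 1 library in some groups. Of the 40 called members of the Y220C comparison, 39 passed within the first set (not SLBP) and 37 within the second (not POLE2, RPA2 and SLBP). In p53-null cells 38 of the 39 passed within the first (not POLE2) and 39 within the second.

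**Figure D2:**
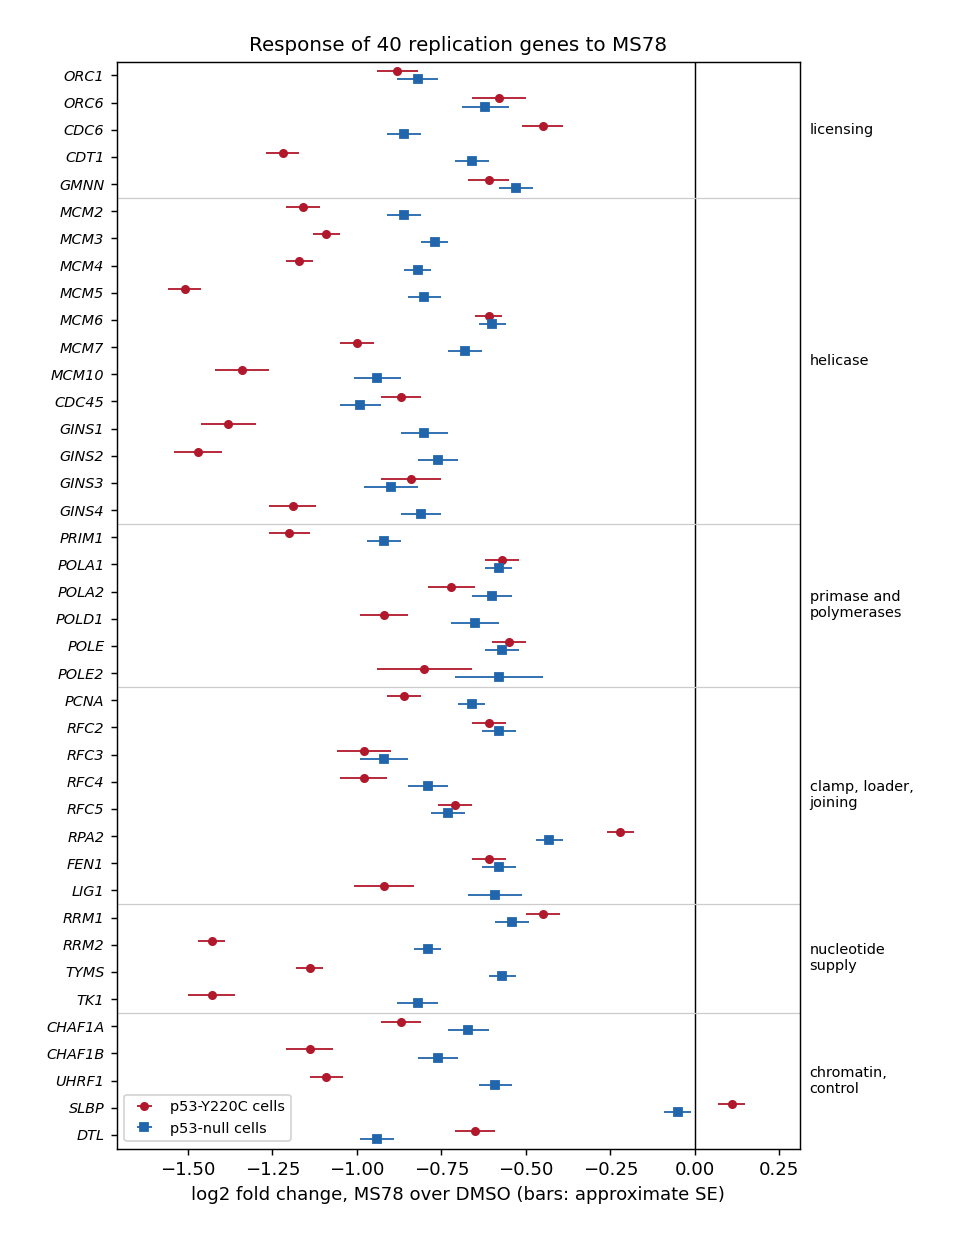
Log2 fold change of each of the 40 members, MS78 over DMSO, in p53-Y220C cells (red circles) and p53-null cells (blue squares), grouped by role; bars are approximate standard errors from fits of 4 libraries per group. In p53-Y220C cells 39 members lie left of 0 and SLBP lies at 0.11. By median the gap between the lines is widest for the nucleotide and helicase genes. MCM6, GINS3, CDC45 and RRM1 of these roles show little gap, and CDT1 and UHRF1 of other roles show wide ones.

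Licensing factors fell in both lines by about the same amount, with medians of -0.61 in Y220C cells and -0.66 in p53-null cells, and CDT1 and CDC6 departed from this in opposite directions. CDT1 (ENSG00000167513, chr16:88803213-88809258, plus strand), which brings the MCM ring to origins, had 45.0, 44.6, 41.1 and 40.9 CPM in Y220C MS78, against 96.2, 109, 100 and 94.6 CPM in Y220C DMSO. In p53-null cells CDT1 had 76.5, 78.4, 73.8 and 76.8 CPM under MS78, against 123, 129, 115 and 116 CPM under DMSO. All MS78 libraries were below all DMSO libraries of their line, and the Y220C MS78 libraries were the lowest of the 16. The fold changes were 2.33-fold lower in Y220C cells (log2 -1.22 ± 0.05 SE, adjusted p = 7.97e-14) and 1.58-fold lower in p53-null cells (-0.66 ± 0.05, adjusted p = 1.2e-09). The difference of these responses was -0.56 ± 0.07 on the log2 scale (adjusted p = 7e-06).

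CDC6 (ENSG00000094804, chr17:40287633-40304657, plus strand), the ATPase that works with ORC and CDT1 in the same loading step, fell less in Y220C cells. It had 17.7, 17.4, 18.6 and 17.5 CPM in Y220C MS78, against 25.1, 26.1, 23.0 and 22.9 CPM in Y220C DMSO. In p53-null cells CDC6 had 19.6, 19.1, 19.4 and 18.8 CPM under MS78, against 33.9, 36.5, 32.0 and 36.8 CPM under DMSO. The MS78 levels of the lines lay close together although the DMSO levels did not. Its responses of -0.45 ± 0.06 in Y220C cells and -0.86 ± 0.05 in p53-null cells differed by 0.41 ± 0.08 (adjusted p = 0.000651), the highest positive difference among the 40. With counts rebuilt from TPM and transcript length the CDC6 difference was 0.55 and did not pass (adjusted p = 0.0673). Within libraries with and without PTPRC reads it was 0.35 and 0.41 and did not pass in either, where some groups hold 1 library. The origin-binding subunits ORC1 and ORC6 and geminin (GMNN), the inhibitor of CDT1, responded by -0.88, -0.58 and -0.61 in Y220C cells and by -0.82, -0.62 and -0.53 in p53-null cells. None of these 3 differences passed (adjusted p between 0.518 and 0.809).

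The helicase genes showed a deeper fall in Y220C cells, with a median of -1.17 against -0.81 in p53-null cells, and 9 of 12 differences passed in that direction, as did 12.4% of all genes tested. MCM5 (ENSG00000100297, chr22:35400063-35425430, plus strand), a subunit of the ring, had 30.7, 32.1, 32.4 and 32.7 CPM in Y220C MS78, against 92.5, 97.8, 87.4 and 87.8 CPM in Y220C DMSO. In p53-null cells MCM5 had 76.8, 79.7, 80.4 and 85.7 CPM under MS78, against 144, 152, 134 and 133 CPM under DMSO. The groups of a line did not overlap, and the Y220C MS78 libraries were far below the rest. MCM5 was 2.86-fold lower in Y220C cells (-1.51 ± 0.05, adjusted p = 3.54e-15), the deepest fall of the 40, and 1.74-fold lower in p53-null cells (-0.80 ± 0.05, adjusted p = 5.34e-11). The difference was -0.71 ± 0.07 (adjusted p = 3.62e-07).

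The other ring subunits did not all follow MCM5. MCM6 (ENSG00000076003, chr2:135839626-135876426, minus strand) had 86.7, 91.4, 89.6 and 87.2 CPM in Y220C MS78, against 138, 133, 135 and 138 CPM in Y220C DMSO. In p53-null cells MCM6 had 115, 112, 112 and 114 CPM under MS78, against 166, 178, 165 and 179 CPM under DMSO. The fall was clear of the spread in both lines and nearly equal, at -0.61 ± 0.04 and -0.60 ± 0.04, with a difference of -0.01 ± 0.05 (adjusted p = 0.901). MCM2 (ENSG00000073111, chr3:127598223-127622436, plus strand) had 66.9, 68.0, 71.7 and 72.5 CPM in Y220C MS78, against 156, 165, 151 and 154 CPM in Y220C DMSO. In p53-null cells MCM2 had 133, 143, 132 and 144 CPM under MS78, against 254, 271, 235 and 241 CPM under DMSO. Its responses were -1.16 ± 0.05 and -0.86 ± 0.05, which differed by -0.31 ± 0.07 (adjusted p = 0.00185). MCM3, MCM4 and MCM7 gave differences of -0.32, -0.35 and -0.33 (adjusted p between 3.2e-05 and 0.000739). The products of these 6 genes assemble in equal numbers into the ring, while their transcripts fell 1.53-fold (MCM6) to 2.86-fold (MCM5) in Y220C cells and 1.52-fold (MCM6) to 1.81-fold (MCM2) in p53-null cells.

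Among the activators, GINS transcripts fell with a median of -1.29 in Y220C cells and -0.81 in p53-null cells. GINS2 (ENSG00000131153, chr16:85676198-85690073, minus strand), a subunit of GINS, had 10.3, 10.3, 10.1 and 9.44 CPM in Y220C MS78, against 28.9, 30.1, 26.0 and 26.1 CPM in Y220C DMSO. In p53-null cells GINS2 had 25.8, 25.3, 25.2 and 28 CPM under MS78, against 44.9, 48.6, 41.3 and 42.1 CPM under DMSO. The MS78 libraries of p53-null cells overlapped the DMSO libraries of Y220C cells. GINS2 was 2.77-fold lower in Y220C cells (-1.47 ± 0.07, adjusted p = 5.29e-13) and 1.70-fold lower in p53-null cells (-0.76 ± 0.06, adjusted p = 1.93e-09), and these responses differed by -0.70 ± 0.09 (adjusted p = 9.58e-06). GINS1 and GINS4 also fell further in Y220C cells, by differences of -0.58 and -0.39 (adjusted p = 0.000606 and 0.00365). With counts rebuilt from TPM and transcript length the GINS4 difference was 0.06 (adjusted p = 0.862), and the cause was not tested. A gene on the other strand shares 1159 exonic bases with GINS4 and held 72 reads over all libraries, against 7556 for GINS4. GINS3 responded by -0.84 ± 0.09 and -0.90 ± 0.08, with a difference of 0.06 ± 0.12 (adjusted p = 0.741). A gene on the other strand shares 558 exonic bases with GINS3 and held 209 reads, against 4677 for GINS3.

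CDC45 (ENSG00000093009, chr22:19479459-19520612, plus strand), the partner of GINS in the active helicase, had 20, 22.4, 20.4 and 19.9 CPM in Y220C MS78, against 39.4, 37.6, 39 and 35.4 CPM in Y220C DMSO. In p53-null cells CDC45 had 21.3, 21.9, 20.7 and 24.0 CPM under MS78, against 42.8, 46.1, 40.5 and 44.7 CPM under DMSO. The MS78 libraries of the lines overlapped, and both DMSO groups stood well above them. CDC45 fell by 1.83-fold in Y220C cells (-0.87 ± 0.06) and by 1.98-fold in p53-null cells (-0.99 ± 0.06, the deepest fall of the 40 in that line), with a difference of 0.12 ± 0.08 that did not pass (adjusted p = 0.315). MCM10 (ENSG00000065328, chr10:13161554-13211104, plus strand), which helps to start the assembled helicase, had 7.22, 7.35, 7.67 and 7.41 CPM in Y220C MS78, against 18.3, 17.3, 20.4 and 18.8 CPM in Y220C DMSO. In p53-null cells MCM10 had 12.8, 13.6, 12.7 and 15.7 CPM under MS78, against 26.1, 28, 24.4 and 26.5 CPM under DMSO. Neither line's groups overlapped. Responses of -1.34 ± 0.08 and -0.94 ± 0.07 differed by -0.39 ± 0.10 (adjusted p = 0.00732).

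Primase and polymerase genes fell by a median of -0.76 in Y220C cells and -0.59 in p53-null cells. Of their 6 differences 2 (33.3%) passed, those of PRIM1 and POLD1 as lower, where 12.4% of all genes were lower. With 6 genes this share is coarse. PRIM1 (ENSG00000198056, chr12:56731596-56752373, minus strand), the catalytic subunit of primase, had 20.6, 18.6, 19.9 and 19.2 CPM in Y220C MS78, against 45.6, 49.0, 43.8 and 41.7 CPM in Y220C DMSO. In p53-null cells PRIM1 had 26.5, 26.8, 26.9 and 30.3 CPM under MS78, against 50.7, 54.6, 53.6 and 50.4 CPM under DMSO. PRIM1 was 2.30-fold lower in Y220C cells (-1.20 ± 0.06) and 1.90-fold lower in p53-null cells (-0.92 ± 0.05), with a difference of -0.28 ± 0.08 (adjusted p = 0.0138). POLE (ENSG00000177084, chr12:132623753-132687365, minus strand), the catalytic subunit of the leading-strand polymerase epsilon, had 49.0, 52.8, 53.7 and 56.9 CPM in Y220C MS78, against 77.4, 69.7, 80.2 and 84.4 CPM in Y220C DMSO. In p53-null cells POLE had 59.9, 60.4, 55.1 and 59.3 CPM under MS78, against 87.2, 88.2, 83.9 and 88.4 CPM under DMSO. Both genes were lower in every MS78 library than in any DMSO library of the line, and POLE responded by -0.55 ± 0.05 in Y220C cells and -0.57 ± 0.05 in p53-null cells, a difference of 0.01 ± 0.08 that did not pass (adjusted p = 0.934). POLD1, the catalytic subunit of the lagging-strand polymerase delta, responded by -0.92 and -0.65, with a difference of -0.27 ± 0.10 (adjusted p = 0.045). POLA1 and POLA2, which form polymerase alpha with primase, and POLE2, an accessory subunit of polymerase epsilon, fell by 1.48-fold to 1.74-fold in Y220C cells and 1.49-fold to 1.52-fold in p53-null cells, and their differences did not pass (adjusted p between 0.389 and 0.934).

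Clamp, loader and joining genes fell by medians of -0.79 in Y220C cells and -0.62 in p53-null cells. PCNA (ENSG00000132646, chr20:5114953-5126626, minus strand), the sliding clamp, had 48.0, 44.9, 52.2 and 47.1 CPM in Y220C MS78, against 90.7, 88.0, 83.6 and 87.5 CPM in Y220C DMSO. In p53-null cells PCNA had 96.8, 96.8, 89.2 and 101 CPM under MS78, against 150, 158, 150 and 148 CPM under DMSO. The p53-null libraries under MS78 reached into or above the range of the Y220C libraries under vehicle. The clamp transcript fell 1.82-fold in Y220C cells (-0.86 ± 0.05) and 1.58-fold in p53-null cells (-0.66 ± 0.04), and the responses differed by -0.21 ± 0.07 (adjusted p = 0.0245). RFC4 (ENSG00000163918, chr3:186789880-186807058, minus strand), a subunit of the clamp loader, had 19.3, 16.5, 18.1 and 15.6 CPM in Y220C MS78, against 36.3, 35.3, 32.0 and 34.1 CPM in Y220C DMSO. In p53-null cells RFC4 had 24.5, 20.6, 22.3 and 25.3 CPM under MS78, against 40.9, 41.1, 38.1 and 40.2 CPM under DMSO. The 4 RFC genes fell by medians of -0.84 and -0.76, and none of their differences passed (RFC2 -0.03, RFC3 -0.06, RFC4 -0.19, RFC5 0.02; adjusted p between 0.155 and 0.873).

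RPA2 (ENSG00000117748, chr1:27891524-27914746, minus strand), a subunit of the single-strand binding complex, had the shallowest fall of the 39 members that fell. It had 57.6, 57.3, 59.0 and 56.6 CPM in Y220C MS78, against 67.6, 69.5, 67.1 and 64.6 CPM in Y220C DMSO. In p53-null cells RPA2 had 56.5, 54.8, 53.3 and 56.1 CPM under MS78, against 70.5, 75.7, 76.5 and 74.6 CPM under DMSO. The fall of -0.22 ± 0.04 in Y220C cells was smaller than that of -0.43 ± 0.04 in p53-null cells, with a difference of 0.21 ± 0.05 (adjusted p = 0.00646). Within libraries with and without PTPRC reads the RPA2 difference was 0.15 and 0.21 and did not pass in either, where some groups hold 1 library. FEN1, which trims the flaps of Okazaki fragments, responded by -0.61 and -0.58, with a difference of -0.02 ± 0.07 (adjusted p = 0.841). LIG1, the ligase that seals them, responded by -0.92 and -0.59, a difference of -0.33 ± 0.12 (adjusted p = 0.0405). The LIG1 difference is a weak call: it was -0.13 with counts rebuilt from TPM and transcript length (adjusted p = 0.74) and -0.09 within libraries without PTPRC reads (0.88).

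Nucleotide supply genes fell by medians of -1.28 in Y220C cells and -0.68 in p53-null cells, and 3 of 4 differences passed, all as lower, where 12.4% of all genes were lower. RRM2 (ENSG00000171848, chr2:10120698-10131419, plus strand), the S phase subunit of ribonucleotide reductase, had 83.7, 83.1, 77.3 and 74.7 CPM in Y220C MS78, against 218, 208, 221 and 210 CPM in Y220C DMSO. In p53-null cells RRM2 had 230, 229, 232 and 242 CPM under MS78, against 392, 419, 384 and 416 CPM under DMSO. Every MS78 library of the p53-null line was above every vehicle library of the Y220C line. RRM2 was 2.69-fold lower in Y220C cells (-1.43 ± 0.04, adjusted p = 1.99e-16) and 1.73-fold lower in p53-null cells (-0.79 ± 0.04, adjusted p = 4.03e-12), a difference of -0.64 ± 0.06 (adjusted p = 9.09e-08). RRM1 (ENSG00000167325, chr11:4094707-4138876, plus strand), the large subunit of the same enzyme, had 69.3, 63.4, 69.3 and 59.5 CPM in Y220C MS78, against 89.4, 89.6, 88.3 and 90.2 CPM in Y220C DMSO. In p53-null cells RRM1 had 79.0, 73.8, 71.4 and 75.8 CPM under MS78, against 106, 111, 105 and 115 CPM under DMSO. Its responses of -0.45 ± 0.05 and -0.54 ± 0.05 differed by 0.09 ± 0.07, which did not pass (adjusted p = 0.337).

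Both enzymes of thymidylate supply fell further in Y220C cells. TK1 (ENSG00000167900, chr17:78174075-78187233, minus strand), the thymidine kinase of the salvage route, had 30.5, 30.6, 30.9 and 32.0 CPM in Y220C MS78, against 85.2, 93.8, 78.7 and 77.2 CPM in Y220C DMSO. In p53-null cells TK1 had 71.1, 75.6, 73.2 and 81.2 CPM under MS78, against 136, 146, 126 and 122 CPM under DMSO. TK1 was 2.70-fold lower in Y220C cells (-1.43 ± 0.07) and 1.76-fold lower in p53-null cells (-0.82 ± 0.06), and the responses differed by -0.62 ± 0.09 (adjusted p = 3.97e-05). TYMS, the thymidylate synthase of the de novo route, averaged 76.7 ± 3.03 CPM in Y220C MS78, 169 ± 8.47 in Y220C DMSO, 167 ± 2.15 in Null MS78 and 247 ± 10.1 in Null DMSO (SD, n = 4 each). Its responses of -1.14 and -0.57 differed by -0.57 ± 0.06 (adjusted p = 4.16e-07). TYMS shares 967 exonic bases with ENOSF1 on the other strand, and whether reads were assigned by strand is not given in the sources used here.

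**Figure D3:**
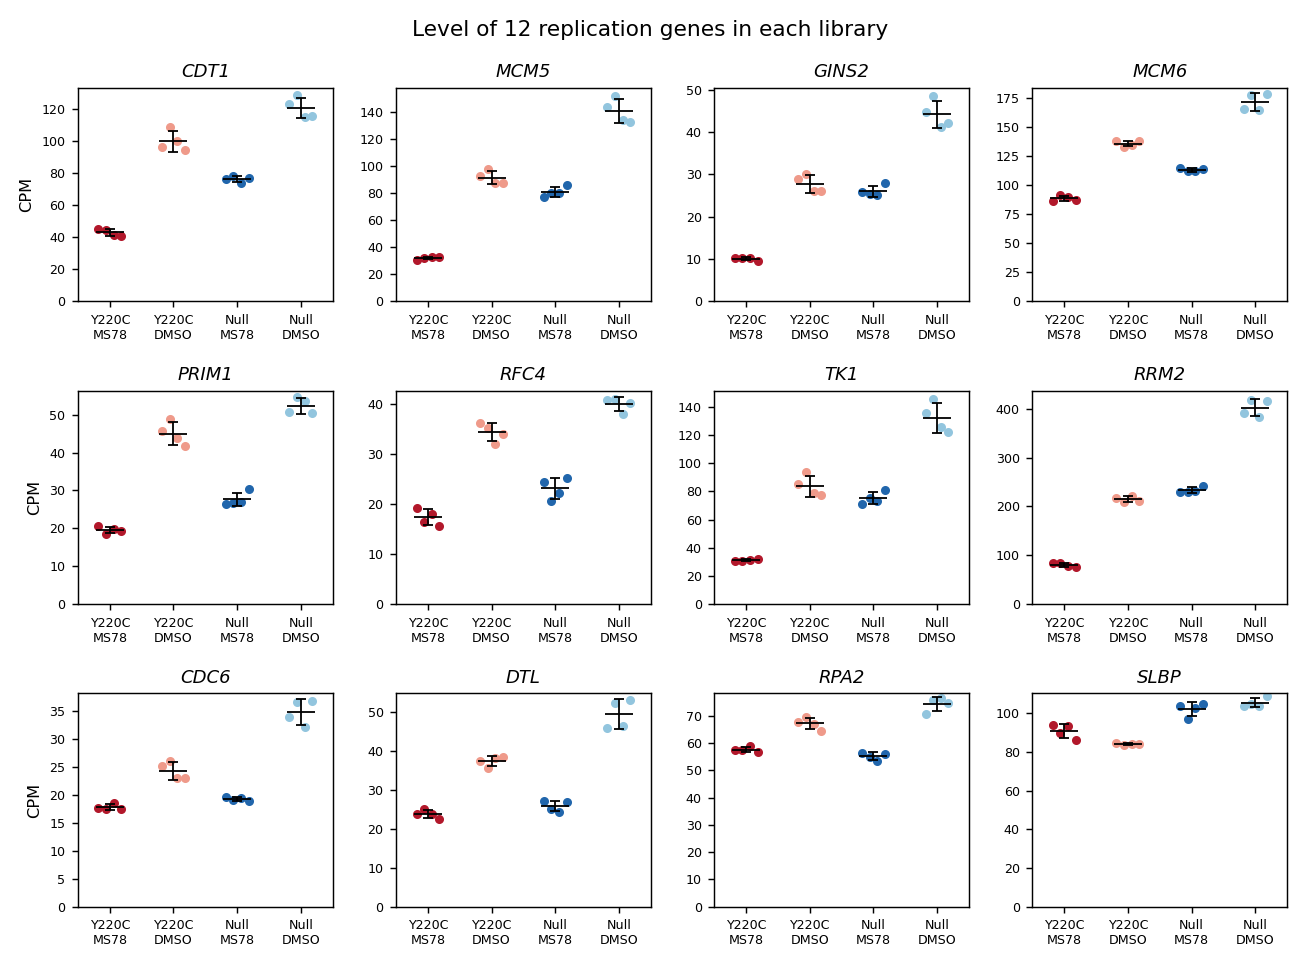
Level of 12 members in each of the 16 libraries in CPM (y axes start at 0), with points for libraries and bars for the mean ± SD of 4; in each panel the groups run from Y220C MS78 and Y220C DMSO to Null MS78 and Null DMSO. CDT1, MCM5, GINS2, TK1 and RRM2 show Y220C MS78 far below the other groups, CDC6 and DTL show similar MS78 levels in both lines, and SLBP stays between 83.5 and 109 CPM throughout.

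Chromatin and control genes held both a strong fall and the lone rise. CHAF1B (ENSG00000159259, chr21:36385378-36419015, plus strand), a subunit of the chromatin assembly factor that places histones behind the fork, had 11.5, 10.2, 10.6 and 12 CPM in Y220C MS78, against 26.7, 24.4, 24.2 and 22.4 CPM in Y220C DMSO. In p53-null cells CHAF1B had 19.0, 20.3, 19.8 and 22.2 CPM under MS78, against 33.7, 37.5, 32.4 and 33.5 CPM under DMSO. Its responses were -1.14 ± 0.07 and -0.76 ± 0.06 (difference -0.38 ± 0.10, adjusted p = 0.00534), whereas those of its partner CHAF1A were -0.87 and -0.67 (difference -0.20 ± 0.09, adjusted p = 0.1). UHRF1, which reads hemimethylated DNA behind the fork, responded by -1.09 and -0.59, a difference of -0.50 ± 0.07 (adjusted p = 2.57e-05).

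SLBP (ENSG00000163950, chr4:1692800-1712555, minus strand), which binds the stem-loop of histone mRNA in S phase, had 94, 90.0, 93.4 and 86.1 CPM in Y220C MS78, against 84.5, 83.5, 84.0 and 84.0 CPM in Y220C DMSO. In p53-null cells SLBP had 104, 97.1, 103 and 105 CPM under MS78, against 104, 105, 104 and 109 CPM under DMSO. The Y220C groups did not overlap but stood within a narrow range, and the p53-null groups overlapped. SLBP rose 1.08-fold in Y220C cells (0.11 ± 0.04, adjusted p = 0.0151) and changed by -0.05 ± 0.04 in p53-null cells (adjusted p = 0.362), with a difference of 0.16 ± 0.05 (adjusted p = 0.0247). The rise is a weak call: without replicate 1 of Y220C MS78 the adjusted p was 0.0507, and with library totals in place of scaled totals the value was 0.02 (adjusted p = 0.651). It did not pass within either kind of library either, at 0.10 in those with PTPRC reads and 0.17 in those without (adjusted p = 0.295 and 0.118). DTL (ENSG00000143476, chr1:212035553-212107400, plus strand), the ubiquitin ligase subunit that marks CDT1 for destruction in S phase, had 23.8, 25.2, 23.9 and 22.5 CPM in Y220C MS78, against 37.4, 35.7, 38.1 and 38.5 CPM in Y220C DMSO. In p53-null cells DTL had 27.1, 25.2, 24.3 and 27.0 CPM under MS78, against 46.0, 52.4, 46.5 and 53.1 CPM under DMSO. DTL fell less in Y220C cells (-0.65 ± 0.06) than in p53-null cells (-0.94 ± 0.05), with a difference of 0.28 ± 0.08 (adjusted p = 0.0114). With counts rebuilt from TPM and transcript length the DTL difference was 0.13 (adjusted p = 0.451), and it did not pass within either kind of library (0.23 and 0.25, adjusted p = 0.26 and 0.425).

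Taking the responses of both lines side by side, 19 of the 40 members fell further in Y220C cells, 4 (CDC6, RPA2, SLBP and DTL) had a higher response there and 17 did not pass. Across all genes tested 26.8% passed for this difference, 14.4% higher and 12.4% lower. The median difference was -0.20 over the members and -0.02 over all genes. By role the median differences were -0.06 for licensing, -0.34 for the helicase, -0.16 for polymerases, -0.05 for clamp and joining, -0.59 for nucleotide supply, and -0.20 for chromatin and control. Fold changes of at least 2-fold were found for 16 members in Y220C cells and for 0 in p53-null cells. These counts depend on the cut. CDC45 changed by -49.5% in p53-null cells and was not counted, while MCM7 changed by -50.1% in Y220C cells and was. Responses were also larger in Y220C cells over all genes, with a median size of 0.241 on the log2 scale against 0.143 in p53-null cells. The share of all genes past 2-fold is not given here. As a description over 40 members that share libraries, the responses of the lines had a Pearson correlation of 0.64 and a Spearman correlation of 0.54, and of 0.51 for both measures without SLBP.

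**Figure D4:**
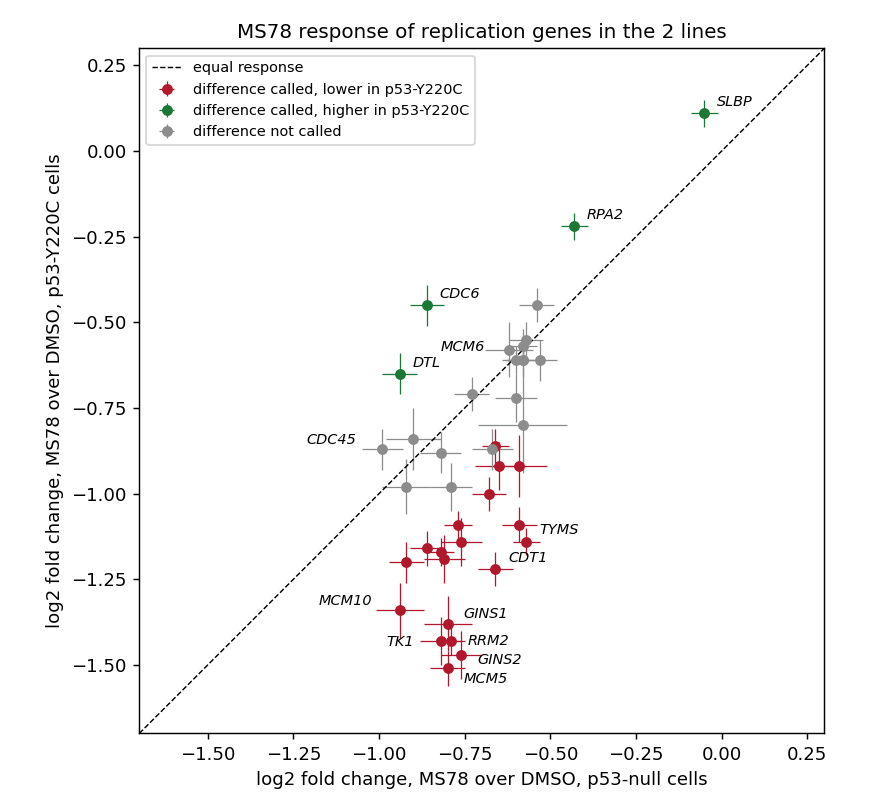
Log2 fold change under MS78 in p53-Y220C cells (y axis) against that in p53-null cells (x axis) for the 40 members, with approximate standard errors as bars; the dashed line marks equal responses. The 19 members whose difference passed as lower in p53-Y220C cells (red) lie below the line with MCM5 lowest, 4 (green: CDC6, DTL, RPA2, SLBP) lie above it and 17 are grey.

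The differences were less firm than the falls. Within libraries with PTPRC reads 11 of the 23 passed, and within those without them 3 of 23 passed (MCM5, RRM2 and TYMS); all 23 kept their direction in both, with member medians of -0.25 and -0.14. Those fits have 8 libraries each, with 1 library in some groups, which was assumed to vary like the others. With a term for these reads in the fit of 16 libraries all 23 passed. With counts rebuilt from TPM and transcript length 17 of the 23 passed, and besides GINS4, LIG1 and DTL the calls of CDC6 (0.55, adjusted p = 0.0673), MCM4 (-0.36, 0.125) and SLBP (0.18, 0.0589) were lost. LIG1 lost its call when replicate 3 or 4 of Null DMSO, 2 or 3 of Null MS78, 1 or 2 of Y220C DMSO, or 2, 3 or 4 of Y220C MS78 was left out (adjusted p between 0.0505 and 0.103). POLD1 lost it without any 1 of 11 libraries (0.0549 to 0.0994), all but replicates 1 and 2 of Null DMSO, 1 of Null MS78, 4 of Y220C DMSO and 2 of Y220C MS78. PCNA lost it without replicate 4 of Null MS78, 1 of Y220C DMSO or 2 of Y220C MS78 (0.0574 to 0.0654), and SLBP without replicate 2 of Null MS78 or 1 or 3 of Y220C MS78 (0.0514 to 0.0608).

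The lines already differed under vehicle. In Y220C DMSO 39 of 40 members were lower than in Null DMSO and ORC6 did not pass, with a median of -0.41 against 0.00 over all genes; 50.2% of all genes passed in this comparison, 24.7% higher and 25.5% lower. This comparison shares the Y220C DMSO and Null DMSO libraries with the MS78 responses, so it is not independent of them. RRM2, at 214 ± 6.32 CPM in Y220C DMSO against 402 ± 17.2 CPM in Null DMSO (SD, n = 4 each), had the largest difference (-0.91 ± 0.04, adjusted p = 3.16e-13). PCNA, at 87.4 ± 2.92 against 151 ± 4.68 CPM, followed with -0.79 ± 0.05 (adjusted p = 1.54e-11). MCM2 (-0.68 ± 0.05) and GINS2 (-0.67 ± 0.06) came next. The smallest called differences were those of RPA2 (-0.15 ± 0.04, adjusted p = 0.00277) and POLE (-0.16 ± 0.05, adjusted p = 0.0166); POLE was lost without replicate 2 of Y220C DMSO (adjusted p = 0.0674) and was -0.08 with counts rebuilt from TPM and transcript length (0.61), and RPA2 was -0.07 within libraries with PTPRC reads (0.539). Groups did not overlap for 36 of 40 members and for 43.6% of all genes. ORC6, the origin-binding subunit, had 29.4, 30.8, 30.4 and 27.7 CPM in Y220C DMSO, against 27.8, 26.7, 23.6 and 29.4 CPM in Null DMSO, a difference of 0.14 ± 0.07 (adjusted p = 0.118). Within libraries with and without PTPRC reads 28 and 37 of the 39 passed, with member medians of -0.37 and -0.41.

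Under MS78 the gap was wider for some genes and smaller for others. In Y220C MS78 34 of 40 members were lower than in Null MS78 and 6 did not pass (ORC6, CDC6, CDC45, GINS3, RPA2 and DTL), with a median of -0.55 against -0.01 over all genes; 61.8% of all genes passed, 30.7% higher and 31.2% lower. RRM2 averaged 79.7 ± 4.42 CPM in Y220C MS78 against 233 ± 5.78 CPM in Null MS78 (-1.55 ± 0.04, adjusted p = 5.48e-17). GINS2 (-1.38 ± 0.07), MCM5 (-1.33 ± 0.05) and TK1 (-1.28 ± 0.07) followed. Groups did not overlap for 34 of 40 members and for 56.4% of all genes. Of the 6 that did not pass, GINS3 was at -0.20 against -0.26 under DMSO, and the groups of CDC6 and RPA2 did not overlap. ORC6 had 21.6, 21.0, 16.5 and 20.1 CPM in Y220C MS78, against 18.4, 16.3, 17.5 and 17.7 CPM in Null MS78, a difference of 0.18 ± 0.08 (adjusted p = 0.0507). With the replicate number as a block, ORC6 passed as higher in Y220C cells (adjusted p = 0.0489), and it passed also without any 1 of 5 libraries (replicates 3 and 4 of Null DMSO, 1 of Null MS78, 4 of Y220C DMSO and 3 of Y220C MS78; adjusted p between 0.00411 and 0.0481). GINS3 passed as lower without replicate 3 of Null MS78, 2 of Y220C DMSO or 1 of Y220C MS78 (0.0235 to 0.0474). POLE (-0.15 ± 0.05, adjusted p = 0.0268) was lost without replicate 1, 2 or 4 of Null MS78 or 1 or 2 of Y220C MS78 (0.0536 to 0.109). Within libraries with and without PTPRC reads 33 and 22 of the 34 passed, with medians of -0.59 and -0.49.

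**Figure D5:**
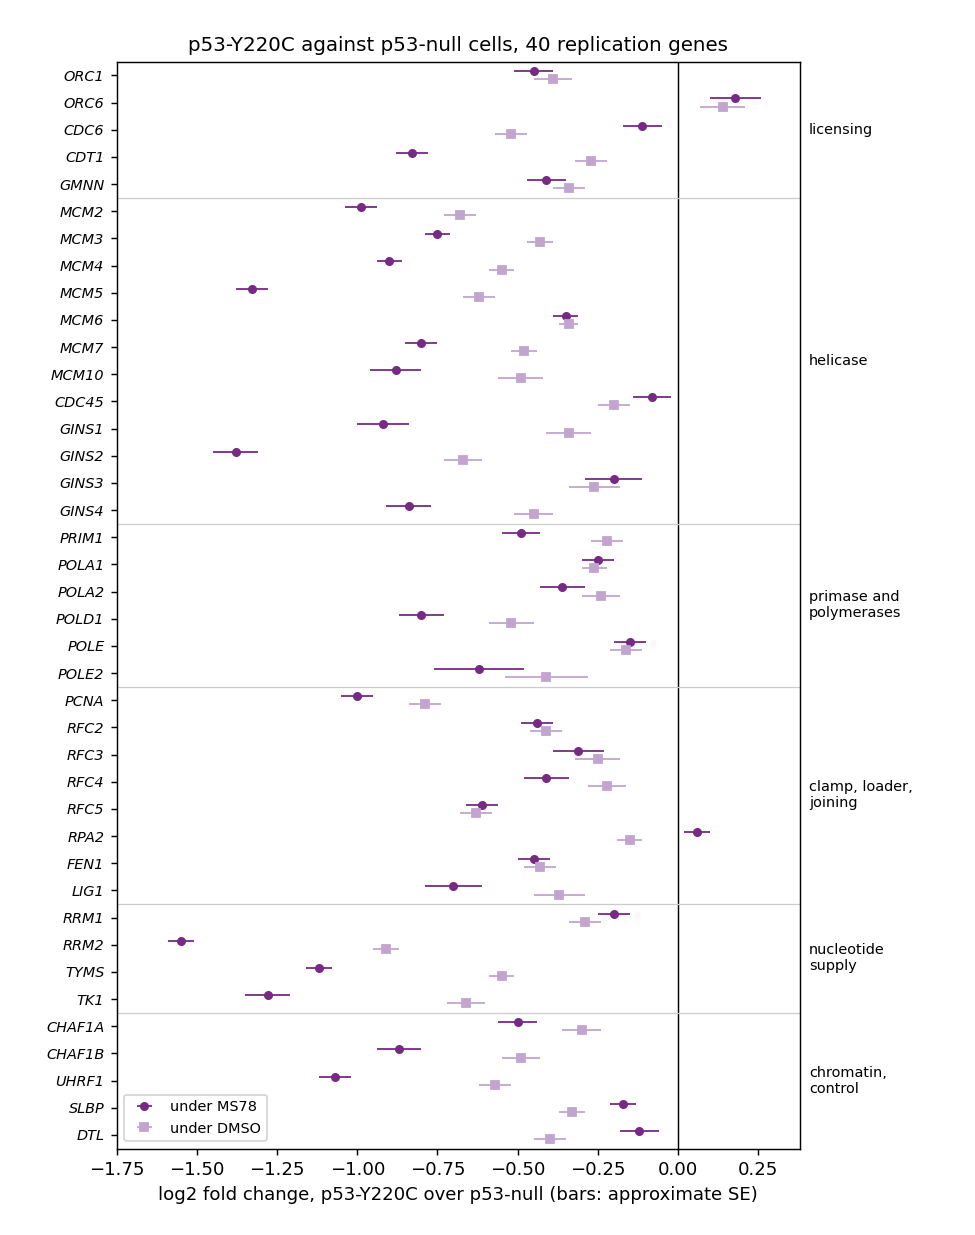
Log2 fold change of p53-Y220C over p53-null cells for the 40 members under MS78 (dark circles) and under DMSO (light squares), with approximate standard errors as bars. Most members lie left of 0 in both conditions; RRM2, GINS2, MCM5 and TK1 lie furthest left under MS78, and CDC6, DTL and RPA2 lie nearer 0 under MS78 than under DMSO.

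A list of 50 further replication genes, which holds the remaining subunits and fork factors, moved in the same direction with a smaller median. Under MS78 in Y220C cells 41 were lower and 2 higher (median -0.44), against 23.6% lower and 24.9% higher over all genes. In p53-null cells 45 were lower and 1 higher (median -0.41), against 13.3% and 14.8% over all genes. RNASEH2A, the catalytic subunit of the ribonuclease that removes RNA primers and ribonucleotides, fell by 1.45 on the log2 scale in Y220C cells. TOP2A, the topoisomerase that untangles replicated DNA, fell by 1.32 there and by 0.88 in p53-null cells. CLSPN, the checkpoint mediator claspin, fell by 1.27 and 0.86, and ASF1B, a histone chaperone, by 1.17 and 0.83. FBXO5, an inhibitor of the anaphase-promoting complex, fell by 0.87 in p53-null cells. ORC4, an origin-binding subunit (0.33 ± 0.05), and RRM2B, the p53-inducible small subunit of ribonucleotide reductase (0.22 ± 0.04), rose in Y220C cells, and RRM2B rose by 0.15 ± 0.04 in p53-null cells (adjusted p = 0.0123).

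For the difference of the responses 12 of the 50 were lower and 7 higher (median -0.11), against 12.4% lower and 14.4% higher over all genes, so the share called higher was near that of all genes. The lowest were RNASEH2A at -0.87, the histone chaperone NASP at -0.49, DSCC1 at -0.48 and RNASEH2C at -0.46. ORC5 (0.34), ORC4 (0.28), MCM9 (0.28) and MCMBP (0.27) were the highest. Between the lines 26 were lower and 5 higher in Y220C cells under DMSO (median -0.15), against 25.5% and 24.7% over all genes. Under MS78 30 were lower and 7 higher (median -0.20), against 31.2% and 30.7% over all genes. The helicase RECQL4 was lowest under DMSO at -0.76, and RNASEH2A under MS78 at -1.10. MCM9 was the highest in both, at 0.62 under MS78 and 0.34 under DMSO.

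Per length of transcript, the members spanned a wide range of levels. MCM7 was the most abundant in all 4 groups, at 115 ± 5.81 TPM (reads scaled for transcript length and for the library) in Y220C MS78, 234 ± 13.1 in Y220C DMSO, 208 ± 7.30 in Null MS78 and 336 ± 21.8 in Null DMSO (SD, n = 4 each). MCM10 was the least abundant in all 4, at 2.26 ± 0.184, 6.11 ± 0.540, 4.47 ± 0.404 and 8.72 ± 0.762 TPM in the same groups. SLBP ranked 2 of 40 in Y220C MS78 and 8 of 40 in Y220C DMSO at 78.1 ± 4.60 and 74.6 ± 1.07 TPM. MCM7 shares 392 exonic bases with AP4M1 on the other strand.

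The split of a gene's reads among its transcripts was a description only, without a test. PCNA and ORC6 are the only members whose main transcript separated MS78 from DMSO libraries in both lines. For the other members no main transcript did so in Y220C cells, and only RFC5-204 did in p53-null cells. With main transcripts of all members examined, some such separations can arise by chance, and their number was not estimated. PCNA-201, the main transcript of PCNA, took 88.0% ± 1.95 of its reads in Y220C MS78, 92.4% ± 1.05 in Y220C DMSO, 91.9% ± 1.24 in Null MS78 and 95.5% ± 0.870 in Null DMSO (SD, n = 4 each). In both lines the MS78 libraries lay below the DMSO libraries without overlap. ORC6-201 took 68.2% ± 2.83 in Y220C MS78, 61.7% ± 1.42 in Y220C DMSO, 64.8% ± 2.40 in Null MS78 and 73.7% ± 1.51 in Null DMSO, so it was higher under MS78 in Y220C cells and lower under MS78 in p53-null cells, without overlap in either line. The remainder was mostly ORC6-207, a transcript that retains an intron. Estimates for other genes were unstable between replicates: MCM3-205 took 31.1% to 98.0% of the reads of MCM3 and POLE2-201 took 0 to 92.9% of those of POLE2 across the 16 libraries.

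The median responses of members with and without E2F letters in their promoter window lay close together. The 19 with a match had median responses of -0.92 in Y220C cells and -0.66 in p53-null cells, and the 17 without had -0.87 and -0.73. For the difference of the responses, 10 of the 19 were lower, 2 higher and 7 did not pass (median -0.21), while 6 of the 17 were lower, 1 higher and 10 did not pass (median -0.08). Over all genes tested 12.4% were lower and 14.4% higher for this difference, so neither set held a larger share called higher than all genes did. No test was made between these sets, and a role of E2F was not tested. The set without a match is defined by 4 exact spellings in a single 300-base window. It may hold genes that E2F proteins bind elsewhere or at other spellings. MCM5, with the deepest fall in Y220C cells, MCM4, GINS4 and RPA2 had no window and are in neither set. RRM2, with no match in its window, had one of the deepest falls, and MCM6, with 4 matches, one of the shallowest among the helicase genes.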

How the data were processed

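Poly(A) RNA of 16 libraries was analysed from deposited transcript tables in the column format of Salmon. Estimated counts per transcript were made by the authors and not normalized, per the file headers. The deposited TPM were normalized by the authors to transcript length and a common sum, per the file headers, and transcript lengths in other columns were also deposited. FastQC 0.11.8 and hg38 are named, per the submitters' processing notes; no source used here gives the quantifier's version, the annotation or any use of strand. Of 197653 transcripts, 193348 (97.82%) matched GENCODE 29 by identifier, and the rest held 0.278% to 0.325% of a library's reads and were left out. Estimated counts were summed per gene and rounded.

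Genes were tested in R 4.3.3 with edgeR 4.0.16 (filterByExpr, TMM, quasi-likelihood F-test) in 1 fit of the 16 libraries, where each group had its own mean and 12 degrees of freedom remained. Adjusted p-values are Benjamini-Hochberg values over 15687 genes with a threshold of 0.05; the text calls a gene higher or lower only past it. CPM are TMM-scaled. SE is approximate: the log2 fold change over the root of F. The tests of MS78 against DMSO were tried on simulated counts with the same spread for every gene and changes planted in Y220C MS78 only. The other comparisons were not tried in this way. Groups came from the labels. Members, lists and promoter letters were chosen with earlier results of these data known. Values per library are given for the member with the largest and smallest response in Y220C cells of each role, for called members that moved against the median, and for up to 4 members with the largest change in each other comparison; ORC6 was added after its values were seen. Alternatives were other scalings, filters, DESeq2 1.42.0, length-scaled TPM, fits within or with a term for libraries with at least 10 PTPRC reads, a replicate block, and leaving out each library.

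Chi-square per gene between replicates was 2.51 to 10.8, so none repeated another. Same-numbered libraries were compared by the correlation of their deviations from group means. All 4 pairs of Y220C MS78 with Null MS78 exceeded 0.1 (0.53, 0.15, 0.2 and 0.17). Of these, 3 matched best with their own number and replicate 2 did not. Replicate 1 of both these groups also lacks the leukocyte reads that replicates 2 to 4 carry. A pairing by number and a shared split of replicate 1 from the others cannot be told apart here, and neither is stated in the labels. In no other pair of groups did all 4 exceed 0.1. Exon overlap with another tested gene was found in GENCODE 29 for some members and is given where it exceeds 300 bases for a member whose values are printed. Pseudogenes named after members held at most 0.0428% of a member's reads. A check of the line labels by expression is not reported here.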

Additional observations from a re-analysis of the deposited data

Results flagged for a closer look

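The response to MS78 differed between the lines for 23 members by the test of the difference itself (p53-Y220C minus p53-null, log2). The value was -0.71 for MCM5, -0.70 for GINS2, -0.64 for RRM2, -0.62 for TK1, -0.58 for GINS1, -0.57 for TYMS, -0.56 for CDT1 and -0.50 for UHRF1. It was -0.39 for MCM10 and GINS4, -0.38 for CHAF1B, -0.35 for MCM4, -0.33 for MCM7 and LIG1, -0.32 for MCM3, -0.31 for MCM2, -0.28 for PRIM1, -0.27 for POLD1 and -0.21 for PCNA. It was positive for CDC6 (0.41), DTL (0.28), RPA2 (0.21) and SLBP (0.16). Over all genes tested 26.8% passed for this difference. Some of the listed calls are weak. With counts rebuilt from TPM and transcript length GINS4 was at 0.06, and CDC6, MCM4, LIG1, SLBP and DTL did not pass. LIG1, POLD1, PCNA and SLBP lost the call when certain single libraries were left out.

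A single library stood apart from the other 3 of its group in 8 of the 160 combinations of member and group examined, and chance gives about 1 in 20. MCM3 was at 140 CPM in replicate 2 of Null DMSO, against 126 to 128 in the others. MCM4 was at 214 CPM in replicate 1 of Y220C DMSO (219 to 220 in the others) and at 169 CPM in replicate 3 of Null MS78 (183 to 186). PRIM1 was at 30.3 CPM in replicate 4 of Null MS78 (26.5 to 26.9), and POLA1 at 67.4 CPM in replicate 3 of Null DMSO (74.2 to 75.5). UHRF1 was at 65.0 CPM in replicate 2 of Y220C DMSO (59.1 to 59.9) and at 64.6 CPM in replicate 2 of Null MS78 (58.2 to 58.6). SLBP was at 109 CPM in replicate 4 of Null DMSO (104 to 105).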

How the results depend on the processing

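Falls under MS78 (39 members in each line) and the lower levels in Y220C DMSO (39) changed by less than 1.5 times in number under every alternative run. The 1 member called higher in Y220C cells (SLBP) was 0 with library totals, with no filter, with length-scaled TPM, within libraries with PTPRC reads, within those without, and with a replicate block fitted on the groups compared only, an alternative added after seeing the data; leaving out each library gave 0 to 1. For the difference of the responses, the 4 members called higher were 1 with length-scaled TPM and 0 within either kind of library (leaving out each library, 3 to 4), and the 19 called lower were 11 within libraries with PTPRC reads and 3 within those without (16 to 19). These fits hold fewer libraries. For Y220C against Null under MS78, the 0 members called higher were 1 (ORC6) with RLE size factors, a filter at 1 CPM, DESeq2 and either replicate block (0 to 1), and the 34 called lower were 22 within libraries without PTPRC reads (33 to 35). Signs turned with length-scaled TPM for GINS4 (difference of the responses, 0.06) and POLE (Y220C against Null under MS78, 0.02); the cause was not tested.

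With the replicate block, all called members kept their call in the 16-library fits. Of the 12 same-numbered pairs outside the MS78 groups, 3 exceeded 0.1 and matched best with their own number, all 3 between Y220C DMSO and Null DMSO (0.45, 0.17 and 0.15); the other pair of these groups was at -0.06, and no pair between MS78 and DMSO of a line exceeded 0.1. Over all genes, the count of 7611 for the Y220C response was 3490 and that of 9699 for the lines under MS78 was 4184 within libraries without PTPRC reads, and that of 7875 for the lines under DMSO was 3817 within those with them. The p53-null count of 4402 was 2848 with length-scaled TPM, 2346 within libraries with PTPRC reads and 1070 within those without, and the difference count of 4197 was 2751, 1870 and 411. Library totals moved the median of all genes in Y220C cells to -0.10 from -0.01. Depth limits POLE2 and GINS1 most, which had as few as 82 and 111 reads in a library.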
